A study of Arabidopsis thaliana with 9 samples.

Results

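Genes that carry plant cells through G2 phase, mitosis and cytokinesis were described across wild-type Arabidopsis thaliana seedlings and a pair of large-leaf transgenic lines. The set was named by gene function: A- and B-type cyclins, the cyclin-dependent kinases (CDKs) of the CDKA and CDKB classes, their CKS subunits, MYB3R transcription factors, topoisomerase II, the centromeric histone CENH3, Aurora kinases and other spindle proteins, spindle checkpoint proteins with CDC20, and cytokinesis proteins. It holds 39 genes, of which 33 had a row of their own among the 20777 loci measured. CYCB1;2 (AT5G06150), CYCB2;3 (AT1G20610), CDKB1;1 (AT3G54180), CDKB1;2 (AT2G38620), CDC20.1 (AT4G33270) and CDC20.2 (AT4G33260), the other 6, were not analysed here.

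A plant cell enters mitosis when A- and B-type cyclins bind CDKs and switch on their kinase activity. CDKA is made through the whole cycle, whereas the plant-specific CDKB kinases and most of these cyclins are made mainly between S phase and mitosis, under the control of MYB3R transcription factors. The anaphase-promoting complex, helped by CDC20, then destroys the cyclins, and a cell plate built on the phragmoplast divides the cell. In a growing leaf, cells near the base go on dividing while those nearer the tip expand and repeat DNA replication without mitosis (endoreduplication), so transcripts of this group come mainly from the young, dividing part of the shoot.

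RNA came from the vegetative part of Col-0 seedlings at growth stage 1.03, raised on MS medium with 16 h of light a day at 22 °C, and was hybridised to Affymetrix ATH1 arrays, which carry sets of short probes for most annotated genes. The groups were wild type, 35S::GA20OX and 35S::JAW, with 3 arrays each, labelled as biological replicates. Both transgenes stand behind the 35S promoter, which is strongly active in most tissues. GA20OX encodes gibberellin 20-oxidase, which makes precursors of the growth hormone gibberellin. The JAW transgene makes miR319a, a microRNA that targets the transcripts of 5 growth-restraining TCP genes. The labels do not say how many independent transformants stand behind each line. The series concerns different routes to a larger leaf, and the comparison of this gene group asks how transcripts of the dividing cell compare between such seedlings and wild type.

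Values are log2 expression values as deposited, per locus, so a difference of 1 is a doubling. Array medians lay between 6.35 and 6.41. On 35S::JAW replicate 2, 21.1% of all loci had their highest value, against 7.0% to 11.3% on each other array. The lower quartile of that array was 4.42, against 4.28 to 4.36 on the others. The labels held for the engineered genes: GA20OX1 (AT4G25420) lay between 12.94 and 13.01 in 35S::GA20OX and at or below 6.14 on the other arrays, and all 5 miR319-targeted TCP genes were lower on each 35S::JAW array than on any wild-type array. Photosynthetic leaf markers lay between 13.27 and 14.33, while root markers stayed at or below 5.78 and floral organ markers at or below 4.88 on every array. With 3 arrays per genotype, differences of the 33 genes had a median standard error (SE) of 0.087 on the log2 scale, close to the 0.083 of all loci. In RNA from whole shoots, fewer dividing cells and less RNA per dividing cell cannot be told apart.

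A single array stood furthest apart for this group. In 35S::GA20OX replicate 3, 27 of the 33 genes were above their own mean over the 9 arrays, by a median of 0.15 on the log2 scale, and 17 of the 33 (51.5%) had their highest value there, against 10.8% of all loci. The other 8 arrays had group medians between -0.066 and 0.033. All 7 B-type cyclins were above their mean on 35S::GA20OX replicate 3, as were both CDKB2 kinases, both MYB3R factors, both checkpoint genes and all 3 cytokinesis genes. CYCA3;1, CYCA2;1, AUR3, CKS1, CDKA;1 and CYCA2;4 were at or below theirs. The lowest values were spread over several arrays. On 35S::JAW replicate 2, 9 genes were lowest (27.3%, against 12.2% of all loci). On wild type replicate 2, 8 were lowest (24.2%, against 10.5%), and on 35S::GA20OX replicate 2, 6 were (18.2%, against 14.2%). For the 33 genes, the difference of 35S::GA20OX from wild type is therefore followed by its value without replicate 3.

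**Figure D1:**
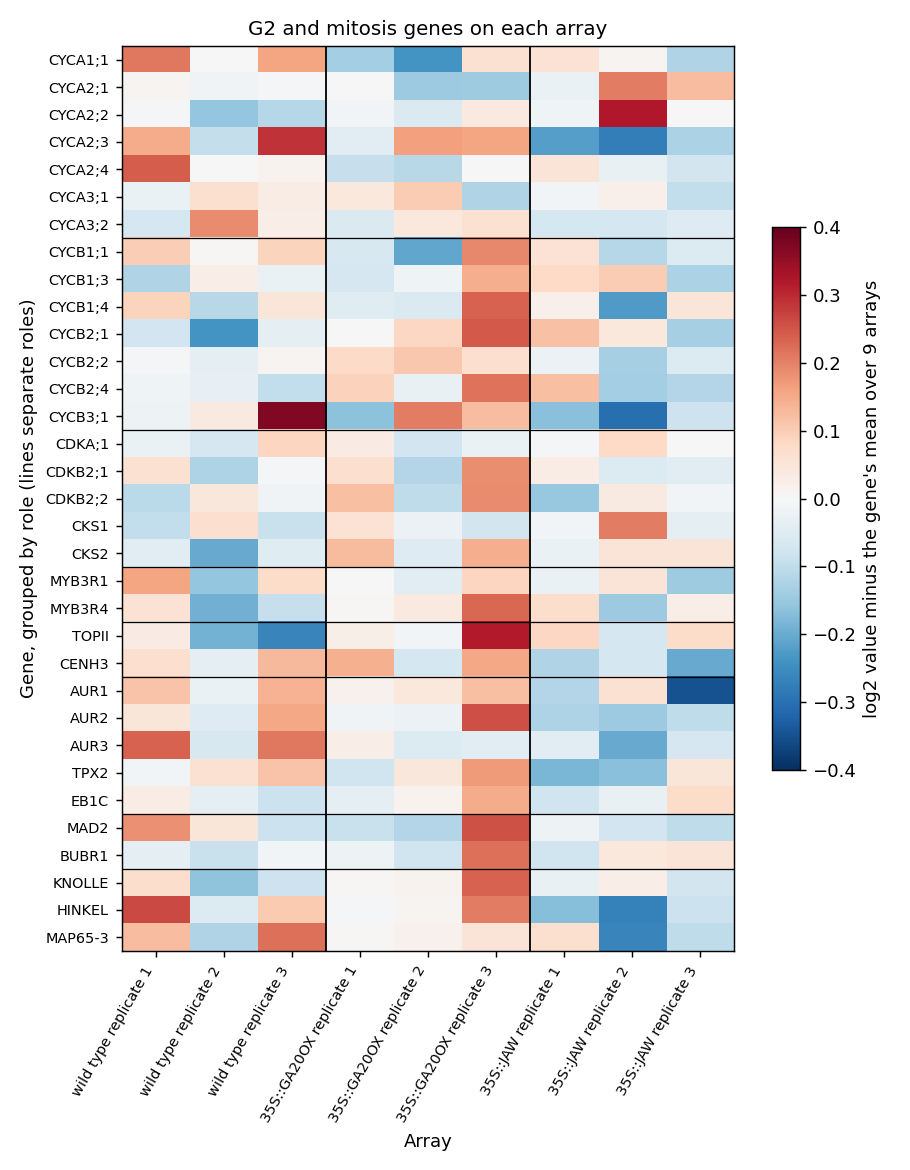
The colour shows the log2 value of each of the 33 measured G2 and mitosis genes (rows, grouped by role) on each of 9 arrays (columns) minus that gene's mean over the arrays. The column of 35S::GA20OX replicate 3 is red for 27 genes, and HINKEL and CYCA2;3 are blue on all 3 35S::JAW arrays.

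No G2 or mitosis gene differed between genotypes past an adjusted p of 0.05, the threshold for a called difference (limma, Benjamini-Hochberg adjustment over all loci). In 35S::GA20OX against wild type 0 of 33 were called, where 0.332% of all loci were. In 35S::JAW against wild type 0 of 33 were called, where 8.32% of all loci were. Between the lines 0 of 33 were called against 13.2% of all loci, and the F test over the genotypes called 0 of 33 against 11.5% of all loci. At an unadjusted p under 0.05 the counts were 4 of 33 in 35S::GA20OX (10.5% of all loci), 5 of 33 in 35S::JAW (20.7%) and 6 of 33 between the lines (25.2%). The values differed little in size too. Log2 differences from wild type lay between -0.23 and 0.25 in 35S::GA20OX and between -0.32 and 0.19 in 35S::JAW.

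The intervals give, for each gene taken alone, a range for its difference. They were not adjusted for the number of genes, so some true differences may lie outside them. The 95% confidence interval of a difference reached a median of 0.19 to either side. Over the 33 genes, the bounds in 35S::GA20OX ran from -0.43 (CYCA1;1, a level 0.743 times that of wild type) to 0.48 (TOPII, 1.39 times). In 35S::JAW they ran from -0.58 (CYCB3;1, 0.670 times) to 0.40 (TOPII, 1.32 times). A doubling or halving of level thus lay outside each gene's own interval, 0 of 33 in each comparison reaching it, for values that RMA may have compressed. Intervals that hold 0 do not show equal levels.

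The median log2 difference over the 33 genes was 0.021 in 35S::GA20OX, with 17 positive and 16 negative, beside a median of 0.0043 over all loci, of which 51.5% were positive. Without 35S::GA20OX replicate 3 it was -0.019, with 12 positive and 21 negative, and still 0 genes were called. In 35S::JAW the median was -0.057, with 13 positive and 20 negative, beside 0.013 over all loci, of which 53.9% were positive. Single arrays moved that median too: it was -0.024 without wild type replicate 1 and -0.033 without 35S::JAW replicate 3, and -0.078 without 35S::JAW replicate 1. Both lines were set against the same 3 wild-type arrays.

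**Figure D2:**
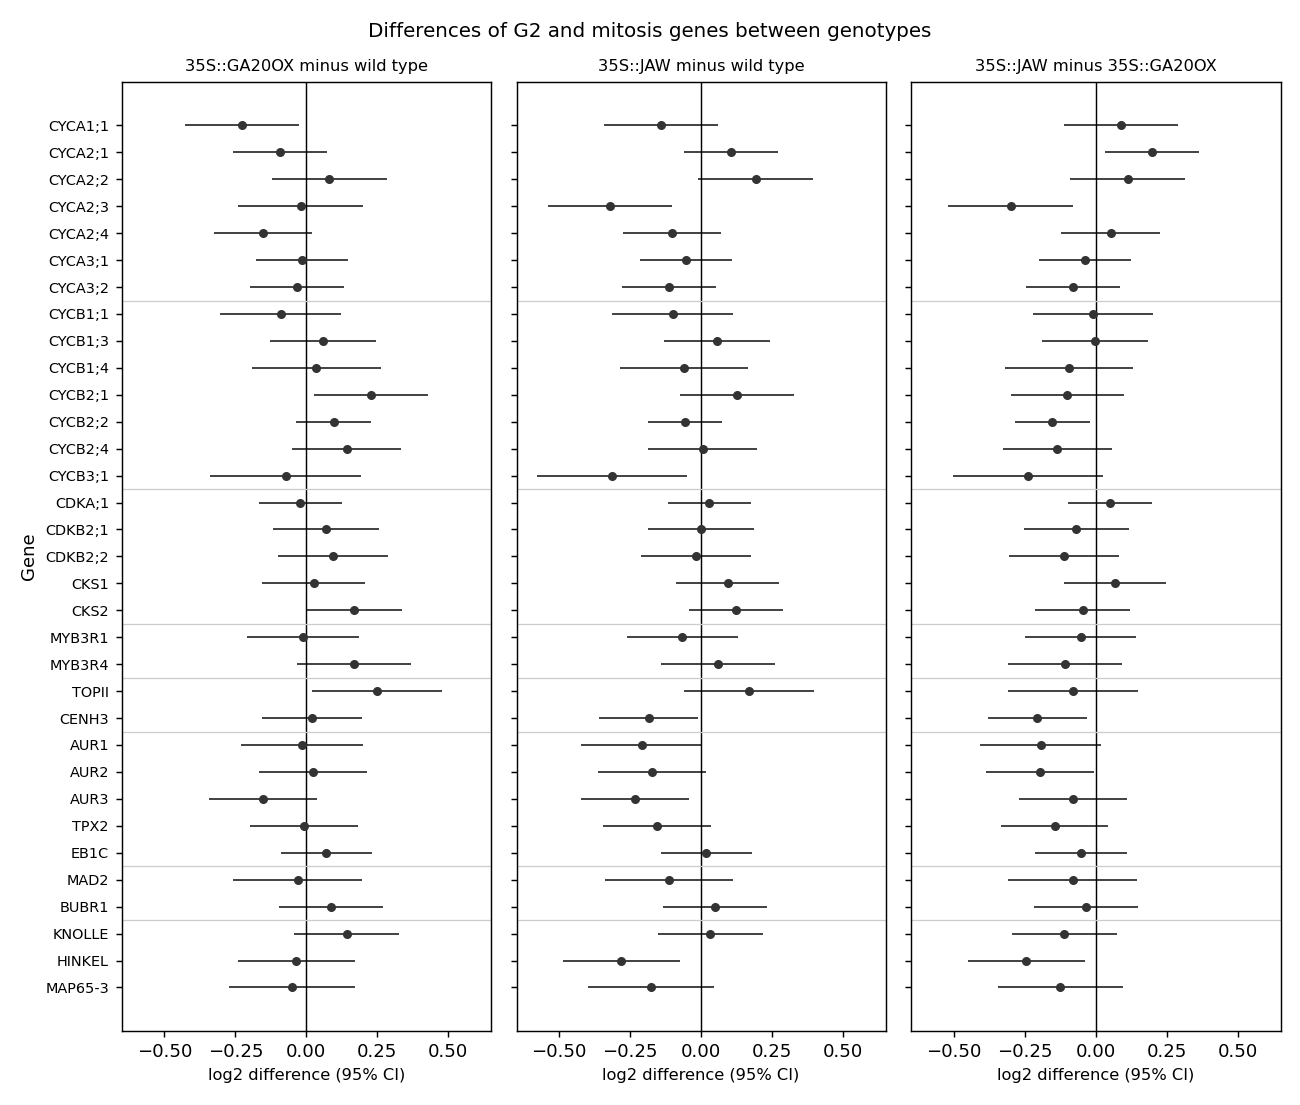
Points are log2 differences of group means (n = 3 arrays each) and bars their 95% confidence intervals for the 33 genes, in the order of the roles, for each line against wild type and for the lines against each other. Most intervals cross 0 (29, 28 and 27 of 33), and none reaches a log2 difference of 1.

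Among the A-type cyclins, which act from S phase to early mitosis, CYCA2;3 (AT1G15570) had the widest gap to wild type in 35S::JAW. CYCA2;3 is known to act with CDKB1 kinase in holding back endoreduplication. In replicates 1 to 3, the order used throughout, its log2 values were 6.28, 6.04 and 6.42 in wild type, 6.09, 6.30 and 6.29 in 35S::GA20OX and 5.91, 5.86 and 6.01 in 35S::JAW. All 35S::JAW arrays were thus below all others, while wild type and 35S::GA20OX overlapped. The difference of 35S::JAW from wild type was -0.32 ± 0.10 (SE), a level of 0.801 times, with a 95% interval of -0.54 to -0.10 and an adjusted p of 0.0787. Without wild type replicate 2, the lowest of its group, it was -0.43 with an adjusted p of 0.0186. Across all alternatives the adjusted p ran from 0.0186 to 0.272.

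CYCA1;1 (AT1G44110), an A-type cyclin that peaks towards mitosis, had 6.94, 6.72 and 6.88 in wild type, 6.59, 6.49 and 6.79 in 35S::GA20OX and 6.78, 6.74 and 6.61 in 35S::JAW. In 35S::GA20OX 2 arrays were below all wild-type arrays and the third was not. That difference, -0.23 ± 0.09, was the lowest of the 33 genes in 35S::GA20OX (adjusted p = 0.419). It was -0.31 without replicate 3 of the line. In 35S::JAW the CYCA1;1 difference was -0.14 ± 0.09 (adjusted p = 0.443). CYCA2;4 (AT1G80370) had 6.46, 6.22 and 6.23 in wild type and 6.13, 6.11 and 6.22 in 35S::GA20OX, below wild type on each array by a narrow margin. Its difference of -0.15 ± 0.08 was -0.076 without wild type replicate 1, which was the highest of the 9 arrays, and -0.19 without 35S::GA20OX replicate 3. In 35S::JAW its values were 6.27, 6.19 and 6.14, with a difference of -0.10 ± 0.08 (adjusted p = 0.527).

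CYCA2;2 (AT5G11300) had the highest difference of the group in 35S::JAW, 0.19 ± 0.09 (adjusted p = 0.265), beside 0.082 in 35S::GA20OX (0.057 without its replicate 3). Its values were 5.35, 5.20 and 5.24 in wild type and 5.34, 5.68 and 5.36 in 35S::JAW, so the groups overlapped, and replicate 2 of 35S::JAW carried most of the gap: without it the difference was 0.083. CYCA2;1 (AT5G25380) was dim, with values from 3.62 to 3.97 on the 9 arrays, and differed from wild type by -0.093 in 35S::GA20OX (-0.070 without its replicate 3) and 0.105 in 35S::JAW. CYCA3;1 (AT5G43080) and CYCA3;2 (AT1G47210), cyclins of the class active around the start of S phase, differed from wild type by -0.015 and -0.032 in 35S::GA20OX (0.050 and -0.055 without its replicate 3) and by -0.052 and -0.11 in 35S::JAW. Of the 7 A-type cyclins 1 had a positive difference in 35S::GA20OX and 2 in 35S::JAW.

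The B-type cyclins, which drive entry into mitosis, gave small differences of both signs. CYCB1;1 (AT4G37490), the cyclin whose promoter is widely used to mark dividing cells, had 6.15, 6.06 and 6.14 in wild type, 5.99, 5.85 and 6.25 in 35S::GA20OX and 6.11, 5.94 and 6.001 in 35S::JAW. The first 2 arrays of 35S::GA20OX lay below every wild-type array and replicate 3 above them all, with a difference of -0.090 ± 0.10 (95% interval -0.30 to 0.12) that was -0.20 without replicate 3 (adjusted p = 0.515). In 35S::JAW the difference was -0.10 ± 0.10 (-0.31 to 0.11). CYCB1;3 (AT3G11520) differed by 0.060 and 0.057 in 35S::GA20OX and 35S::JAW, and CYCB1;4 (AT2G26760) by 0.035 and -0.060. In 35S::GA20OX without replicate 3 these were -0.0027 and -0.061.

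CYCB2;1 (AT2G17620) had 5.45, 5.29 and 5.49 in wild type, 5.53, 5.61 and 5.78 in 35S::GA20OX and 5.65, 5.57 and 5.40 in 35S::JAW. Each 35S::GA20OX array was above every wild-type array, and 35S::JAW overlapped both. The difference in 35S::GA20OX was 0.23 ± 0.09 (adjusted p = 0.416) and 0.16 without replicate 3 of the line. In 35S::JAW it was 0.13 ± 0.09 (adjusted p = 0.491). CYCB2;2 (AT4G35620) had 5.76, 5.73 and 5.78 in wild type, 5.84, 5.87 and 5.84 in 35S::GA20OX and 5.74, 5.63 and 5.71 in 35S::JAW. It too was higher on each 35S::GA20OX array, by 0.097 ± 0.060 on average (0.10 without replicate 3). These were the only genes of the 33 to lie above wild type on each 35S::GA20OX array (6.06%, beside 8.53% of all loci), and CYCA2;4 was the only gene below (3.03%, beside 8.3%). CYCB2;4 (AT1G76310) differed by 0.14 in 35S::GA20OX (0.080 without its replicate 3) and by 0.0052 in 35S::JAW.

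CYCB3;1 (AT1G16330), the single B3-type cyclin, had 5.98, 6.03 and 6.37 in wild type, 5.84, 6.20 and 6.12 in 35S::GA20OX and 5.83, 5.70 and 5.92 in 35S::JAW. Its 35S::JAW arrays were all below the wild-type arrays, and its pooled SD within genotypes, 0.18, was the widest of the 33 genes. The difference in 35S::GA20OX was -0.073 (-0.11 without its replicate 3) and that in 35S::JAW -0.31 ± 0.12 (adjusted p = 0.159). Without wild type replicate 3, its highest array, the latter was -0.19 (adjusted p = 0.459).

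The kinases that these cyclins activate were close to wild type in both lines. CDKA;1 (AT3G48750), the kinase needed at both main transitions of the cycle, had 8.69, 8.65 and 8.80 in wild type, 8.75, 8.64 and 8.69 in 35S::GA20OX and 8.71, 8.79 and 8.72 in 35S::JAW. The 3 groups overlapped, with differences of -0.021 ± 0.067 (95% interval -0.17 to 0.13, and -0.019 without 35S::GA20OX replicate 3) and 0.028 ± 0.067 (-0.12 to 0.17). CDKB2;1 (AT1G76540), a kinase made from G2 to mitosis, had 7.24, 7.05 and 7.17 in wild type, 7.24, 7.06 and 7.36 in 35S::GA20OX and 7.21, 7.12 and 7.13 in 35S::JAW. It differed by 0.069 ± 0.085 in 35S::GA20OX, where the difference was -0.00074 without replicate 3, and by less than 0.01 in 35S::JAW (95% interval -0.19 to 0.19). CDKB2;2 (AT1G20930) differed by 0.095 in 35S::GA20OX (0.035 without its replicate 3) and by -0.017 in 35S::JAW.

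CKS proteins bind CDKs and help them to dock on substrates. CKS2 (AT2G27970) had 7.67, 7.51 and 7.66 in wild type, 7.83, 7.65 and 7.85 in 35S::GA20OX and 7.68, 7.76 and 7.76 in 35S::JAW. It was the only gene of the 33 to lie above wild type on each 35S::JAW array (3.03%, beside 14.2% of all loci). Its differences were 0.17 ± 0.08 in 35S::GA20OX (adjusted p = 0.472, and 0.13 without its replicate 3) and 0.12 ± 0.08 in 35S::JAW (adjusted p = 0.412). CKS1 (AT2G27960), its neighbour by locus number, differed by 0.026 in 35S::GA20OX (0.056 without its replicate 3) and by 0.093 in 35S::JAW, and probes shared between such similar genes were not checked.

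MYB3R1 and MYB3R4 bind the promoters of many genes of this group, MYB3R4 as an activator. MYB3R4 (AT5G11510) had 6.26, 6.02 and 6.11 in wild type, 6.21, 6.25 and 6.44 in 35S::GA20OX and 6.28, 6.06 and 6.23 in 35S::JAW. The groups overlapped, with a difference of 0.17 ± 0.09 in 35S::GA20OX (adjusted p = 0.565), of 0.098 without replicate 3 of the line and of 0.059 ± 0.091 in 35S::JAW. MYB3R1 (AT4G32730) differed by -0.012 in 35S::GA20OX (-0.048 without its replicate 3) and by -0.066 in 35S::JAW.

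Topoisomerase II (TOPII, AT3G23890), which untangles sister chromosomes, had the highest difference of the group in 35S::GA20OX. Its values were 6.79, 6.57 and 6.49 in wild type, 6.78, 6.74 and 7.07 in 35S::GA20OX and 6.84, 6.69 and 6.83 in 35S::JAW. Wild type replicate 1 lay above 2 of the 35S::GA20OX arrays, so the groups overlapped. The difference of 0.25 ± 0.10, or 1.19-fold (adjusted p = 0.433), was 0.15 without 35S::GA20OX replicate 3. In 35S::JAW it was 0.17 ± 0.10 (adjusted p = 0.410). CENH3 (AT1G01370), the histone that marks centromeres, had 5.39, 5.28 and 5.45 in wild type, 5.46, 5.25 and 5.47 in 35S::GA20OX and 5.20, 5.25 and 5.11 in 35S::JAW. Its 35S::JAW arrays were below all wild-type arrays, with a difference of -0.19 ± 0.08 (adjusted p = 0.214). In 35S::GA20OX it was 0.021 (-0.019 without replicate 3).

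The 3 Aurora kinases, which phosphorylate chromosomes and spindle, all had negative differences in 35S::JAW. AUR3 (AT2G45490), the Aurora kinase found at centromeres, had 5.53, 5.23 and 5.51 in wild type, 5.32, 5.24 and 5.25 in 35S::GA20OX and 5.25, 5.09 and 5.23 in 35S::JAW. Wild type replicate 2 lay among the arrays of the transgenic lines. The difference in 35S::JAW was -0.23 ± 0.09 (adjusted p = 0.146), and without wild type replicate 2 it was -0.33 (adjusted p = 0.0258) and without wild type replicate 1 it was -0.18 (adjusted p = 0.407). In 35S::GA20OX it was -0.15 ± 0.09 (adjusted p = 0.583), and -0.14 without replicate 3. AUR1 (AT4G32830) and AUR2 (AT2G25880), which act on the spindle and the cell plate, differed by -0.21 ± 0.10 and -0.17 ± 0.09 in 35S::JAW and by -0.015 and 0.023 in 35S::GA20OX (-0.045 and -0.069 without its replicate 3). AUR2 lay between 6.85 and 6.90 on the 35S::JAW arrays, below its wild-type values of 7.05, 6.95 and 7.15, whereas AUR1 overlapped.

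TPX2 (AT1G03780), which nucleates spindle microtubules, differed by -0.0090 in 35S::GA20OX (-0.071 without its replicate 3) and -0.16 in 35S::JAW. EB1C (AT5G67270), a protein of microtubule tips, differed by 0.070 in 35S::GA20OX (0.016 without its replicate 3) and by 0.019 in 35S::JAW. The checkpoint proteins MAD2 (AT3G25980) and BUBR1 (AT2G33560) delay anaphase until chromosomes are attached. MAD2 differed by -0.031 in 35S::GA20OX and -0.11 in 35S::JAW, and BUBR1 by 0.086 and 0.050. In 35S::GA20OX without replicate 3 MAD2 differed by -0.15 and BUBR1 by -0.0040.

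Of the cytokinesis genes, HINKEL (AT1G18370), a kinesin that lets the phragmoplast expand, had 7.35, 7.03 and 7.19 in wild type, 7.08, 7.10 and 7.29 in 35S::GA20OX and 6.92, 6.82 and 6.9997 in 35S::JAW. All 35S::JAW arrays were below all others. The difference from wild type was -0.28 ± 0.09, a level of 0.823 times (95% interval -0.49 to -0.075, adjusted p = 0.102). Without wild type replicate 2 it was -0.36 (adjusted p = 0.0442), and without replicate 1 it was -0.20 (adjusted p = 0.333). KNOLLE (AT1G08560), the syntaxin that fuses vesicles into the cell plate, had 9.15, 8.92 and 8.998 in wild type, 9.08, 9.10 and 9.32 in 35S::GA20OX and 9.05, 9.11 and 9.01 in 35S::JAW. These overlapped, with differences of 0.14 ± 0.08 in 35S::GA20OX (0.068 without its replicate 3) and 0.032 ± 0.084 in 35S::JAW. MAP65-3 (AT5G51600), which crosslinks phragmoplast microtubules, differed by -0.050 (-0.063 without 35S::GA20OX replicate 3) and -0.18. In 35S::GA20OX HINKEL differed from wild type by -0.035, and by -0.10 without replicate 3.

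**Figure D3:**
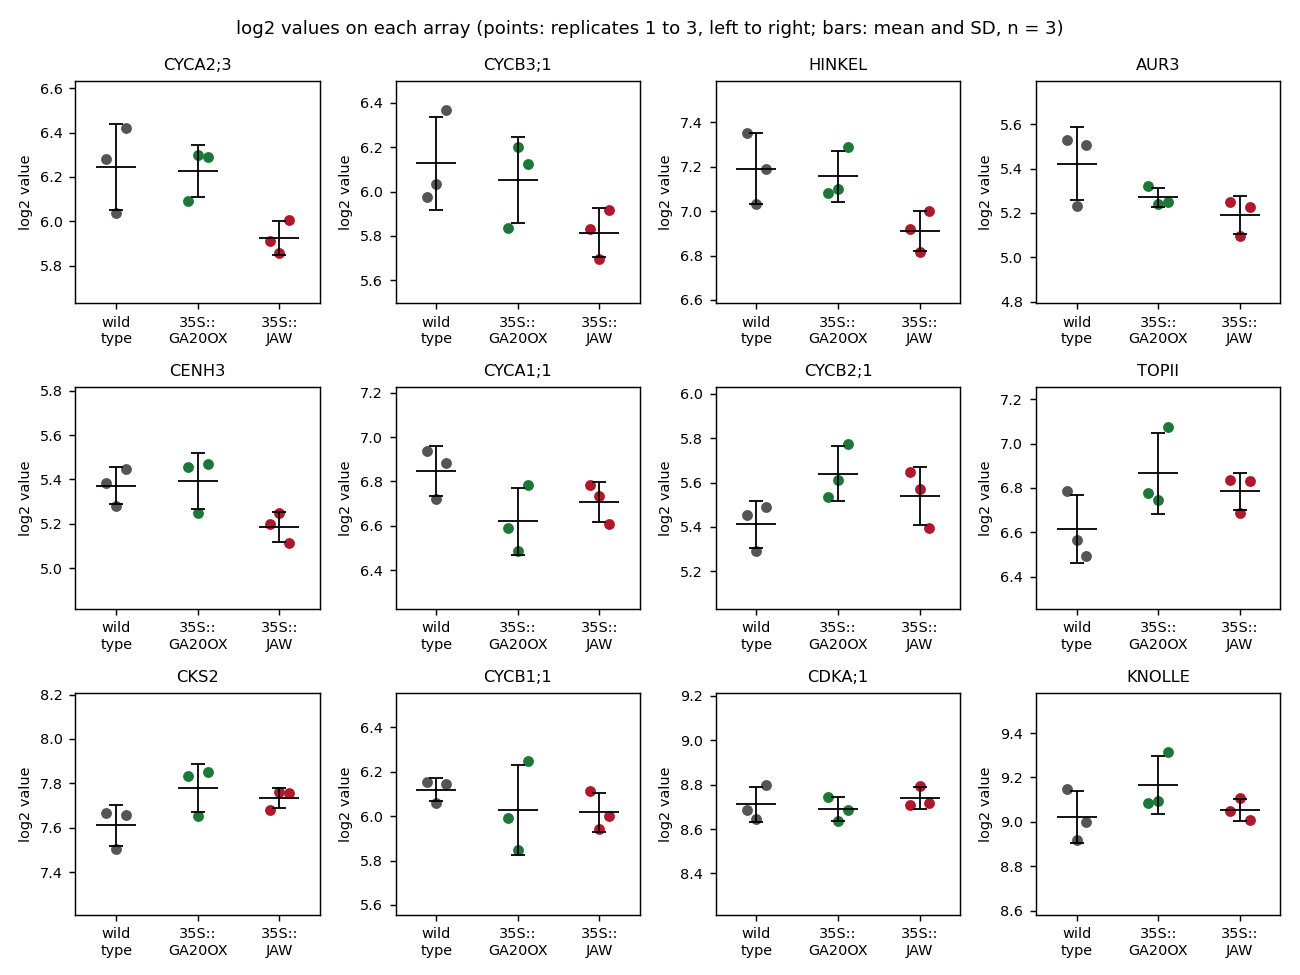
Each panel shows the log2 value of a gene on 3 arrays per genotype (points) with the mean and SD (bars), on axes of the same height. In CYCA2;3 and HINKEL the 35S::JAW points lie below all others, and in TOPII and KNOLLE the third 35S::GA20OX array is the highest of the 9.

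Counting genes whose arrays did not overlap, 5 of 33 lay below wild type on each 35S::JAW array: CYCA2;3, CYCB3;1, CENH3, AUR2 and HINKEL. That is 15.2% of the group, beside 11.4% of all loci. The 5 genes at an unadjusted p under 0.05 in 35S::JAW were CYCA2;3, CYCB3;1, CENH3, AUR3 and HINKEL, all lower (beside 9.58% of all loci that were lower at that level). In 35S::GA20OX, CYCB2;1, CKS2 and TOPII passed that unadjusted level with higher values (beside 5.31% of all loci) and CYCA1;1 with lower ones (beside 5.15%).

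Set directly against each other, the lines differed by a median of -0.081 (35S::JAW minus 35S::GA20OX) over the 33 genes, with 27 negative and 6 positive, beside a median of 0.0096 over all loci, of which 52.7% were positive. Without 35S::GA20OX replicate 3 the median was -0.033, with 19 negative and 14 positive. Deviations from the genotype means tended to move together across the 33 genes (median Pearson r of 0.28 over 528 pairs of genes). The 33 signs are therefore not separate observations. All 7 B-type cyclins, all 5 spindle genes and all 3 cytokinesis genes had negative differences over all arrays, as had 4, 4 and 3 of them without that replicate. CYCA2;3 was the lowest at -0.30 ± 0.10 (adjusted p = 0.0744), followed by HINKEL at -0.25 ± 0.09 (adjusted p = 0.119) and CYCB3;1 at -0.24 ± 0.12 (adjusted p = 0.25). CYCA2;1 was the highest at 0.20 ± 0.07 (adjusted p = 0.116). Without 35S::GA20OX replicate 3 these were -0.27 for CYCA2;3, -0.18 for HINKEL, -0.20 for CYCB3;1 and 0.17 for CYCA2;1. On each 35S::JAW array 5 genes lay below every 35S::GA20OX array, CYCA2;3, CYCB2;2, CENH3, AUR2 and HINKEL (15.2%, beside 14.3% of all loci), and 0 lay above (beside 15.9%). For CENH3 the nearest arrays were all but equal (5.2474 in 35S::JAW against 5.2477 in 35S::GA20OX).

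A list of 39 further genes of G2, mitosis and cytokinesis, of which 34 were measured, gave the same count. None was called in either line against wild type (0 of 34 in each, beside 0.332% of all loci in 35S::GA20OX and 8.32% in 35S::JAW). The medians were -0.0056 in 35S::GA20OX and 0.0093 in 35S::JAW. In 35S::JAW TANGLED (TAN, AT3G05330), which marks the division plane, was lowest at -0.36 (adjusted p = 0.0857). In 35S::GA20OX the kinesin ATK1 (AT4G21270) was highest at 0.28, and at 0.11 without replicate 3. The activators of the anaphase-promoting complex CCS52A1 (AT4G22910) and CCS52A2 (AT4G11920), which steer cells towards endoreduplication, differed by -0.016 and 0.010 in 35S::GA20OX (-0.0031 and 0.057 without its replicate 3) and by -0.17 and 0.076 in 35S::JAW. WEE1 (AT1G02970), a kinase that restrains CDKs, differed by 0.088 in both lines (0.067 in 35S::GA20OX without its replicate 3).

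Genes of the preceding S phase gave a different count in 35S::JAW. Of 15 measured replication genes 6 fell (beside 3.98% of all loci) and 0 rose, with a median of -0.28 and all 15 negative. They included PCNA1 (AT1G07370), the sliding clamp of DNA polymerase, by 0.37 ± 0.07 (adjusted p = 0.0101), MCM5 (AT2G07690) of the replicative helicase by 0.43 ± 0.10 (adjusted p = 0.0239), TSO2 (AT3G27060) of ribonucleotide reductase by 0.35 ± 0.08 (adjusted p = 0.0243) and ETG1 (AT2G40550) by 0.35 ± 0.09 (adjusted p = 0.0295). In the same comparison the 33 G2 and mitosis genes had a median of -0.057 and 0 called. The difference between the lists was not tested. In 35S::GA20OX 0 of the 15 replication genes were called (beside 0.332% of all loci), with a median of -0.080, 11 negative and 4 positive. The lowest there were CDC6 (AT2G29680) at -0.35 (adjusted p = 0.168) and TSO2 at -0.30 (adjusted p = 0.212). In 35S::JAW these 2 genes were at -0.31 and -0.35. Without 35S::GA20OX replicate 3 CDC6 and TSO2 were both at -0.39 in that line.

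**Figure D4:**
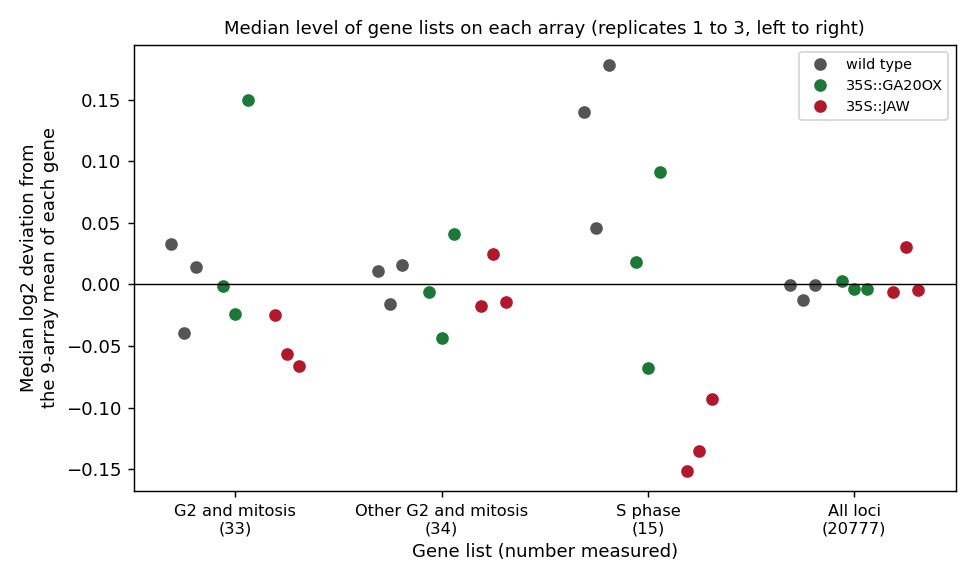
Each point is the median, over a gene list, of the log2 deviation from each gene's mean over 9 arrays, for 1 array. For the 33 G2 and mitosis genes the 35S::JAW arrays lie at -0.025, -0.056 and -0.066, close to wild type replicate 2 at -0.040, and 35S::GA20OX replicate 3 lies at 0.15, while the S phase points of 35S::JAW lie below all wild-type points.

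Markers of the meristem and young leaf, the tissues that divide, were measured beside these genes. Many of them were dim. KNAT2, WUS, CUC1 and CUC3 stayed at or below 4.03 on every array, and CLV3, CUC2 and AIL6 at or below 4.69. KNAT1 lay between 4.06 and 5.33. These levels overlap those of the root and floral markers, and signal over background could not be examined, which limits the counts and medians below. Of 11 markers 0 were called in 35S::GA20OX (beside 0.332% of all loci), with a median of 0.031. In 35S::JAW 7 of the 11 were negative, with a median of -0.062, and 1 was called (beside 8.32% of all loci). This was FIL (AT2G45190), a gene of young leaf polarity, which rose by 0.31 ± 0.07 (adjusted p = 0.0164). The meristem genes STM (AT1G62360) and KNAT1 (AT4G08150) were the lowest of the 11 in 35S::JAW. They differed from wild type by -0.40 ± 0.11 (adjusted p = 0.0539) and -0.53 ± 0.18 (adjusted p = 0.109) in 35S::JAW, and by 0.085 and 0.28 in 35S::GA20OX (0.034 and 0.12 without its replicate 3). The remaining markers ran in 35S::JAW from -0.088 (CUC2, AT5G53950) to 0.15 (CLV3, AT2G27250, adjusted p = 0.258). Among them the meristem gene WUS (AT2G17950) was at -0.062. Between the lines STM and KNAT1 were lower in 35S::JAW, by -0.49 ± 0.11 (adjusted p = 0.0162) and -0.82 ± 0.18 (adjusted p = 0.0124), and FIL was higher by 0.27 ± 0.07 (adjusted p = 0.0203). Without 35S::GA20OX replicate 3 STM was at -0.44 (adjusted p = 0.0655), KNAT1 at -0.65 (adjusted p = 0.0470) and FIL at 0.31 (adjusted p = 0.0287). The summed linear signal of the 11 markers lay between 752.5 and 845.4 on wild-type arrays, between 764.3 and 848.4 in 35S::GA20OX and between 864.5 and 888.8 in 35S::JAW. FIL made up more than the other 10 together, with 426.6 to 479.3 in wild type, 446.3 to 484.2 in 35S::GA20OX and 545.9 to 566.8 in 35S::JAW. The other 10 summed to between 325.9 and 366.1, between 318.1 and 364.2 and between 307.8 and 325.4. Without FIL the 35S::JAW arrays thus lay below wild type, by a very narrow margin at the nearest arrays (325.4 against 325.9), and overlapped 35S::GA20OX. The part of tissue make-up in the values of the mitotic genes was not tested. For the 6 root and 6 floral markers, 0 were called in either line (beside 0.332% of all loci in 35S::GA20OX and 8.32% in 35S::JAW).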

How the data were processed

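The authors deposited log2 values from RMA, according to the submitters' processing notes. This method subtracts background, gives the probe signals of all arrays the same distribution and then summarises probes per locus. The locus values can therefore still differ somewhat in distribution between arrays. Small signals change less than their transcripts do, and a shift common to all genes cannot be seen. The sources used here name no version, chip definition, detection calls, scan dates or genome build, so signal over background and batches could not be examined. Loci were matched by code, and all 39 were found in a RefSeq gene table of TAIR10.1. No coordinates or sequences are given.

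limma 3.58.1 in R 4.3.3 was fitted to all 20777 loci and 9 arrays with 1 mean per genotype (lmFit, eBayes, 6 residual and 5.04 prior degrees of freedom), with two-sided tests and Benjamini-Hochberg adjustment per comparison. No filter was applied. The script was tested on simulated data.

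The genes and lists were chosen with earlier results of these data known. Array values are printed for the 3 highest and 3 lowest genes in each line and for usual representatives of each role. CYCB2;2, CENH3, AUR2, TAN and ATK1 were singled out after their values were seen, as were the other genes named beside these counts. The 3 wild-type arrays serve both comparisons. The labels do not say whether the same replicate number marks paired samples. Correlations of deviations between same-numbered arrays ran from -0.10, the only negative value, to 0.25. Between arrays of different number they ran from -0.22 to 0.17. The fit took no account of the numbers, and pairing was not tested.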

Additional observations from a re-analysis of the deposited data

How the results depend on the processing

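No gene of the 33 was called in 35S::GA20OX against wild type under any alternative run. Leaving out the dimmest 40% of loci (29 genes kept) gave 1 call, CYCA2;3, in 35S::JAW against wild type (adjusted p = 0.0482) and 1 between the lines (adjusted p = 0.0448). Array weights also gave 1 in 35S::JAW against wild type (adjusted p = 0.0421), and a fit to the 6 arrays compared gave 1 between the lines (adjusted p = 0.0474). With 1 array left out, the calls ranged from 0 to 3 in 35S::JAW against wild type, from 0 to 1 between the lines and from 0 to 2 in the F test, all above 0 only without wild type replicate 2. These were CYCA2;3, AUR3 and HINKEL (lower in 35S::JAW), CYCA2;3 between the lines, and CYCA2;3 and AUR3 in the F test; the cause was not tested. Cyclic loess, centring on array medians, an intensity trend with a robust prior, an adjusted p of 0.01 and the replicate block gave 0 calls in every comparison. With the replicate number as a block the group medians were again 0.021, -0.057 and -0.081. They could not change, since each genotype held each replicate number once. The labels do not say whether the numbers mark pairs, and they were not taken as pairs. Over the alternatives, 42 of 42 group medians moved by less than the spread between arrays (SD 0.060). That SD is larger than the medians of the lines against wild type, 0.021 and -0.057 in size and sign. A median that changed sign could therefore still fall within it. The 42 include those with the replicate block, which could not move. With 1 array left out the group medians ranged from -0.019 to 0.048 in 35S::GA20OX, from -0.078 to -0.024 in 35S::JAW and from -0.13 to -0.033 between the lines. Of 714 recomputed differences of 15 genes, none of them called over all arrays, 8 passed the threshold. The count over all loci in 35S::GA20OX, 69, ranged from 15 at an adjusted p of 0.01 to 205 with the intensity trend, and from 22 to 79 with 1 array left out. In 35S::JAW, 1729 became 866 at an adjusted p of 0.01 and 1074 without wild type replicate 3 (1135 without replicate 1), and between the lines 2749 became 1371 at 0.01. The promoter motif planned for description was not run.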
